A study of Rattus norvegicus with 9 samples.

Results

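The transcription factor NRF2 (gene Nfe2l2), 8 of its best known target genes and the mitochondrial superoxide dismutase gene Sod2 were followed in the superior mesenteric artery, the vessel that feeds most of the small bowel. The 10 genes were taken by symbol from a table of read counts for 37203 genes. All 10 were in the table, 9 of them passed the filter on low counts, and Slc7a11 did not. The arteries came from 8-week-old Sprague-Dawley rats weighing 220 to 240 g, with 3 libraries from normal rats (the group Normal), 3 after ischemia for 1 h and 3 after ischemia for 4 h. Ischemia was produced by bleeding through a catheter in a femoral artery under sodium pentobarbital, so it was a loss of blood from the whole body and not a block of the artery that was sampled. The sources do not say whether normal rats were also anaesthetised and catheterised, so bleeding cannot be told apart from surgery and anaesthesia in the comparisons with Normal. The series description gives 3 rats per group, while the study speaks of 3 individuals over all conditions. The libraries were treated as separate rats, and p-values below measure the spread between these libraries.

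NRF2 is held at a low protein level by KEAP1, which presents it to a CUL3 ubiquitin ligase for degradation. Oxidants and electrophiles modify cysteines of KEAP1, NRF2 then accumulates, enters the nucleus and binds, together with a small MAF protein, a DNA motif called the antioxidant response element (ARE). BACH1 competes for the same element and is displaced by heme. Because this control acts mainly on the protein, the mRNA of Nfe2l2 need not follow the activity of the factor, and its targets are commonly used as the readout. In arteries this program is best known for heme oxygenase 1, which is also induced by heme, hypoxia and shear stress, not always through NRF2.

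Libraries held 13114273 to 15504240 counts. Levels are given in CPM, counts relative to the total of their library, with the totals scaled by the TMM method (factors 0.814 to 1.22). Smooth muscle markers summed to 10453 to 61639 CPM per library and endothelial markers to 402.6 to 1411 CPM, so the labelled artery was present in every library. Adipocyte markers summed to 296 to 2299 CPM. The makeup was uneven, with smooth muscle markers at 10453, 44395 and 45260 CPM in the 3 normal libraries. Markers of peripheral nerve varied much more within the groups. The nerve score, which is the mean log2 CPM of 22 nerve genes such as Dbh, was 6.20, 0.59 and 4.85 in Normal, 8.32, 6.20 and 8.53 at 1 h and 1.58, 2.38 and 8.44 at 4 h. It is given below beside the genes that were high in the same libraries. In these bulk samples fewer cells of a type and less RNA per cell cannot be told apart.

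Hmox1, Srxn1, Sod2, Gclc and Txnrd1 were higher in each of the 3 arteries taken at 1 h than in each of the 3 normal arteries, by 9.01-fold, 5.83-fold, 3.06-fold, 2.06-fold and 1.75-fold respectively. At 4 h only Hmox1 and Gclc were still above the normal range in all 3 arteries, by 5.19-fold and 1.95-fold. Nfe2l2 itself was not higher at either time. None of the 9 genes passed the test across all genes (edgeR quasi-likelihood test, Benjamini-Hochberg adjusted p under 0.05 and a fold over 1.5), and the lowest adjusted p was 0.145, for Hmox1 at 1 h. The test called few genes of any kind in these libraries. It called 0.0581% of the 15482 genes tested at 1 h, 0.0904% at 4 h and 0.0388% in the test of all 3 groups together.

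The unadjusted counts can be read against the same background. At 1 h, 5 of the 9 genes had an unadjusted p under 0.05 where 16.7% of all genes did, and the same 5 were higher without overlap where 12.8% of all genes were. None was lower without overlap, against 13.5% of all genes. At 4 h, 3 of the 9 had an unadjusted p under 0.05 against 12.4% of all genes, 2 were higher without overlap against 7.94%, and 2 were lower without overlap against 10.8%. In the test of all 3 groups together, 5 of the 9 had an unadjusted p under 0.05 against 11.4%. The median log2 fold change of the 9 genes was 0.81 at 1 h and 0.27 at 4 h, where the medians of all genes tested were -0.0076 and 0.027. Both comparisons use the same 3 normal arteries and are not independent of each other.

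The outcome of the test depended on the tool. DESeq2, run on the same counts, called 4 of the 9 genes at 1 h, with adjusted p-values of 2.82e-05 for Hmox1, 0.00482 for Srxn1, 0.0264 for Sod2 and 0.0365 for Gclc, where it called 4.53% of all genes. At 4 h it called Hmox1 alone, with an adjusted p of 0.00436, against 3.91% of all genes. In the test of all 3 groups it called Hmox1 and Srxn1, against 4.32% of all genes.

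**Figure D1:**
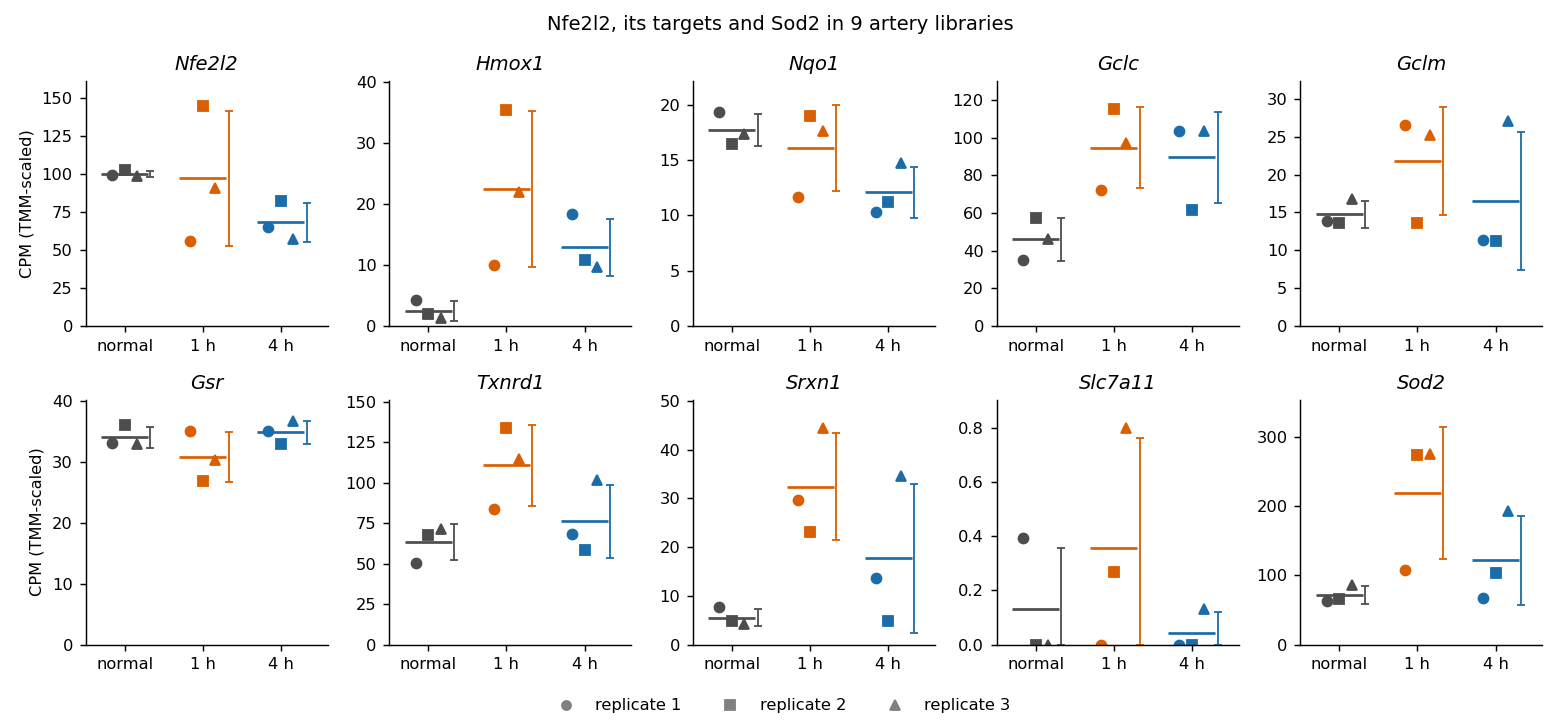
Level of each gene in CPM (linear axis from 0) in each of the 9 libraries, by group, with 1 symbol shape per replicate number, the group mean as a line and the SD over 3 libraries as a bar that stops at 0. Hmox1, Gclc, Txnrd1, Srxn1 and Sod2 have all 3 values at 1 h above all 3 normal values, and Slc7a11 lies near the lowest level that can be counted.

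Promoter sequence is shown for the genes in which a short motif was found, since the ARE is the element through which NRF2 is known to act. RefSeq windows of the rat assembly GRCr8, reaching from 250 bases before the transcription start to 50 after it, were matched by symbol for 8 of the 10 genes. Hmox1 and Gsr had none. The ARE core was searched as TGACNNNGC and the binding motif of AP-1, a stress-responsive factor, as TGACTCA, both on either strand. A site reading TGACTCA followed by GC would match both. The ARE core was found for 4 of the 8 genes (Gclm, Txnrd1, Sod2 and Nfe2l2) and in 12.1% of all 33469 windows. The AP-1 motif was found for Srxn1 only, at 2 places, and in 4.63% of all windows. The stretches below run 5′ to 3′ on the strand of the gene, capitals mark the match, and all of these matches lie on the opposite strand. The match began 172 bases before the start in Gclm, 78 before it in Txnrd1 and 35 before it in Sod2. In Srxn1 the matches began 62 and 5 bases before the start. In Nfe2l2 the match lay after the start and is not shown.
Gclm, chr2:213031923-213032011, plus strand: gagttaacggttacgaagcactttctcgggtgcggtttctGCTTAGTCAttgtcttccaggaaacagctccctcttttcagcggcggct
Txnrd1, chr7:22755934-22756022, minus strand: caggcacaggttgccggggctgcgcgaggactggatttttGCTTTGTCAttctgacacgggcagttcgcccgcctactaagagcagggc
Sod2, chr1:50050169-50050243, minus strand: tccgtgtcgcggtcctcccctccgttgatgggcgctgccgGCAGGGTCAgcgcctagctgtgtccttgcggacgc
Srxn1, chr3:161064710-161064813, plus strand: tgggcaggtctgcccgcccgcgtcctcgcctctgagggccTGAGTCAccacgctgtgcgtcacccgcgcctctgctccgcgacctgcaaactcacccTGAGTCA
A match describes these letters only. Of the 5 genes that were higher in every artery at 1 h, Txnrd1 and Sod2 held the ARE core in this window, Srxn1 held the AP-1 motif and not the ARE core, Gclc held neither, and Hmox1 had no window. Gclm held the ARE core, and its 1 h and normal values overlapped.

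Nfe2l2, the factor itself, was at 99.5, 103 and 98.5 CPM in the normal arteries, at 56.2, 145 and 90.8 CPM at 1 h and at 65.5, 82.4 and 57.1 CPM at 4 h. The normal values lay close together, the 1 h values spread on both sides of them, and all 3 values at 4 h were below them. The log2 fold change was -0.04 (SE 0.32, edgeR adjusted p = 0.951) at 1 h, with a 95% interval of the difference from -0.77 to 0.68. At 4 h it was -0.55 (SE 0.32, unadjusted p = 0.118, edgeR adjusted p = 0.518). The normal group was at 100.2 ± 2.13 CPM and the 4 h group at 68.3 ± 12.9 CPM (SD, n = 3 each).

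Hmox1 codes for heme oxygenase 1, which breaks heme down to biliverdin, carbon monoxide and iron. Its level was 4.25, 1.90 and 1.25 CPM in Normal, 9.96, 35.4 and 21.95 CPM at 1 h and 18.3, 10.9 and 9.63 CPM at 4 h. Every ischemic artery was above every normal one, and replicates 2 and 3 at 1 h were the highest of all. The normal values rest on 76, 26 and 17 counts. The log2 fold change was 3.17 (SE 0.61, unadjusted p = 0.000756, edgeR adjusted p = 0.145) at 1 h and 2.37 (SE 0.60, unadjusted p = 0.00376, edgeR adjusted p = 0.171) at 4 h. Leaving out each library in turn moved these values between 2.68 and 3.82 and between 2.02 and 3.03, and the unadjusted p stayed under 0.05 in all 9 fits for both.

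Other sources of Hmox1 in an artery after bleeding are macrophages and cells that take up red cells. Summed levels of 9 macrophage markers were 52.5 to 230.5 CPM in Normal, 95.6 to 217.3 CPM at 1 h and 41.2 to 133.4 CPM at 4 h, with none of the 9 at 0 in every library of a group. Summed levels of 5 red cell markers were 63.5 to 287.5, 86.8 to 242.6 and 145 to 394 CPM in the same order. Both sets of ranges overlap between the groups, and their part in the Hmox1 values was not tested. Adding the nerve score to the fit gave Hmox1 a log2 fold change of 3.30 at 1 h (SE 0.67, unadjusted p = 0.0011).

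Gclc and Gclm code for the catalytic and the modifier subunit of glutamate-cysteine ligase, which carries out the rate-limiting step of glutathione synthesis. Gclc was at 34.8, 57.4 and 45.98 CPM in Normal, at 72.0, 115 and 97.0 CPM at 1 h and at 104, 61.6 and 104 CPM at 4 h. All 6 ischemic values were above all 3 normal ones, narrowly so in replicate 2 at 4 h. Gclc had a log2 fold change of 1.04 (SE 0.29, unadjusted p = 0.0066, edgeR adjusted p = 0.219) at 1 h and 0.96 (SE 0.29, unadjusted p = 0.0099, edgeR adjusted p = 0.233) at 4 h. Leaving out single libraries gave 0.87 to 1.21 and 0.79 to 1.17, with an unadjusted p under 0.05 in all 9 fits for both times. Adding the nerve score to the fit gave 1.15 at 1 h (SE 0.35, unadjusted p = 0.011).

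Gclm, the modifier subunit, was at 13.9, 13.6 and 16.8 CPM in Normal, at 26.5, 13.6 and 25.2 CPM at 1 h and at 11.3, 11.3 and 27.0 CPM at 4 h. The 3 high values belong to the 3 libraries with nerve scores above 8, and the other 6 libraries lay between 11.3 and 16.8 CPM whatever their group. The same 3 libraries also had the highest summed neutrophil markers, at 6.62, 3.99 and 4.29 CPM. The part of nerve or of neutrophils in the Gclm values was not tested. In the fit without that score, its log2 fold change was 0.56 (SE 0.40, edgeR adjusted p = 0.451) at 1 h and 0.17 (SE 0.40, edgeR adjusted p = 0.891) at 4 h. Fitted together with the nerve score, they became -0.058 and -0.015. No test compared Gclm with Gclc directly.

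Slc7a11 codes for the light chain of the cystine importer that feeds cysteine into this pathway. It had 7, 0 and 0 counts in Normal, 0, 4 and 13 at 1 h and 0, 0 and 2 at 4 h. With a floor of 3 counts, which corresponds to 0.168 to 0.249 CPM depending on the library, it was above the floor in 1 normal artery and in 2 arteries at 1 h. No fold change is given for it, and a difference was not detectable at this depth. Gsr codes for glutathione reductase, which returns oxidised glutathione to its reduced form. Its level was 33.1, 36.0 and 32.99 CPM in Normal, 35.1, 26.9 and 30.2 CPM at 1 h and 35.04, 32.9 and 36.7 CPM at 4 h. The groups overlapped, its SE of 0.16 was the smallest of the 9 genes in both comparisons, and the 95% interval of the log2 difference was -0.51 to 0.22 at 1 h and -0.33 to 0.40 at 4 h.

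Txnrd1 codes for the cytosolic thioredoxin reductase, and Srxn1 for sulfiredoxin, which repairs peroxiredoxins that peroxide has inactivated. Txnrd1 was at 50.4, 68.0 and 71.4 CPM in Normal, at 84.0, 134 and 114 CPM at 1 h and at 68.6, 58.3 and 101 CPM at 4 h. The 1 h values were all above the normal ones, while at 4 h replicates 1 and 2 lay within the normal range and replicate 3 above it. Its log2 fold change was 0.81 (SE 0.27, unadjusted p = 0.0166, edgeR adjusted p = 0.255) at 1 h. Its unadjusted p stayed under 0.05 in 6 of the 9 fits without 1 library and was lost without normal replicate 1, without replicate 2 at 1 h and without replicate 3 at 1 h. It was also lost when the nerve score was added to the fit, at a log2 fold change of 0.69 (SE 0.33, unadjusted p = 0.065). At 4 h its log2 fold change was 0.27 (SE 0.27, edgeR adjusted p = 0.697) with all libraries and 0.0058 without replicate 3 at 4 h.

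Srxn1 was at 7.60, 4.74 and 4.28 CPM in Normal, at 29.7, 23.1 and 44.5 CPM at 1 h and at 13.6, 4.89 and 34.7 CPM at 4 h. All 1 h values were well above the normal ones, and at 4 h the 3 values ran from within the normal range to the 1 h level. The log2 fold change at 1 h was 2.54 (SE 0.66, unadjusted p = 0.0044, edgeR adjusted p = 0.210), and 2.24 to 2.84 without single libraries. At 4 h it was 1.67 (SE 0.64, unadjusted p = 0.0296, edgeR adjusted p = 0.338), and 0.73 without replicate 3 at 4 h. The unadjusted p at 4 h stayed under 0.05 in 6 of the 9 fits without 1 library and was lost when replicate 3 at 4 h, normal replicate 2 or normal replicate 3 was left out. The highest value in each group came from the library with the highest nerve score of that group. Srxn1 had a log2 fold change of 1.70 (SE 0.56, unadjusted p = 0.015) at 1 h when the score was added to the fit, and of 1.37 (unadjusted p = 0.017) at 4 h.

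Nqo1 codes for a reductase that detoxifies quinones, and it is among the genes most often measured as a readout of NRF2. Its level was 19.3, 16.5 and 17.3 CPM in Normal, 11.6, 19.0 and 17.7 CPM at 1 h and 10.3, 11.2 and 14.7 CPM at 4 h. The normal and 1 h values overlapped, and all 3 values at 4 h were below all 3 normal ones. The log2 fold change was -0.14 (SE 0.24, edgeR adjusted p = 0.775) at 1 h, with a 95% interval from -0.70 to 0.42, and -0.55 (SE 0.24, unadjusted p = 0.0523, edgeR adjusted p = 0.406) at 4 h. With the nerve score in the edgeR fit, the 4 h value was -0.58 (SE 0.23, unadjusted p = 0.039). Its unadjusted p at 4 h was under 0.05 in 2 of the 9 fits without 1 library. Its values at 4 h were thus on the other side of Normal from those of Hmox1 and Gclc.

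Sod2 codes for the manganese superoxide dismutase of the mitochondrial matrix, and it is also a well known target of NF-kB. It was at 62.5, 65.9 and 86.4 CPM in Normal, at 108, 274 and 276 CPM at 1 h and at 68.0, 104 and 194 CPM at 4 h. All 1 h values were above the normal range, and at 4 h replicate 1 lay within it. Sod2 had a log2 fold change of 1.62 (SE 0.47, unadjusted p = 0.0080, edgeR adjusted p = 0.227) at 1 h and 0.77 (SE 0.46, edgeR adjusted p = 0.530) at 4 h. At 4 h it was 0.26 without replicate 3. Adding the nerve score to the fit gave a 1 h value of 1.23 (SE 0.50, unadjusted p = 0.039). Neutrophils carry much Sod2 mRNA, and summed levels of neutrophil markers were 1.2 to 3.2 CPM in Normal, 1.7 to 6.6 CPM at 1 h and 0.99 to 4.3 CPM at 4 h, with Elane at 0 in every library. The part of these cells in the Sod2 values was not tested.

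**Figure D2:**
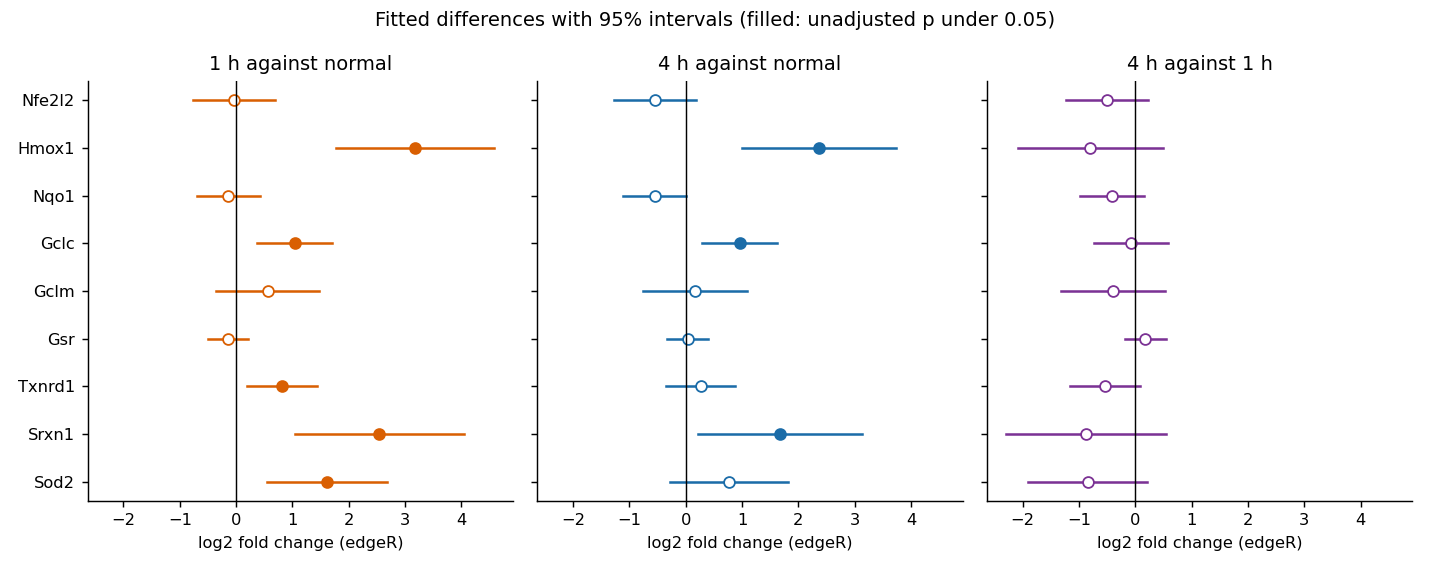
Fitted log2 fold change (edgeR, x axis) of the 9 genes tested in the 3 comparisons, with 95% intervals as bars and filled points where the unadjusted p was under 0.05. Filled points number 5 at 1 h and 3 at 4 h, all to the right of 0, and there are none between the ischemia times.

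The ischemia times were also compared with each other, since the study asked how the vessel differs between the early and the late stage. Of the 9 genes, 1 was higher and 8 were lower at 4 h than at 1 h by their fitted values. Of all genes, 46.4% were higher. Their median log2 fold change was -0.51 against -0.040 over all genes. None had an unadjusted p under 0.05, against 2.58% of all genes, none was without overlap, against 6.22%, and edgeR called 0% of all genes. DESeq2 called none of the 9 either. The lowest unadjusted p was 0.0779, for Txnrd1. For Hmox1 the log2 fold change was -0.80 with a 95% interval from -2.09 to 0.49, for Srxn1 it was -0.87 with an interval from -2.29 to 0.55, and for Sod2 it was -0.85 with an interval from -1.90 to 0.20. Gclc differed least, at -0.08 with an interval from -0.74 to 0.57. The intervals reach beyond a 1.5-fold difference in at least 1 direction for each of these 4 genes, so they do not show the times to be alike.

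**Figure D3:**
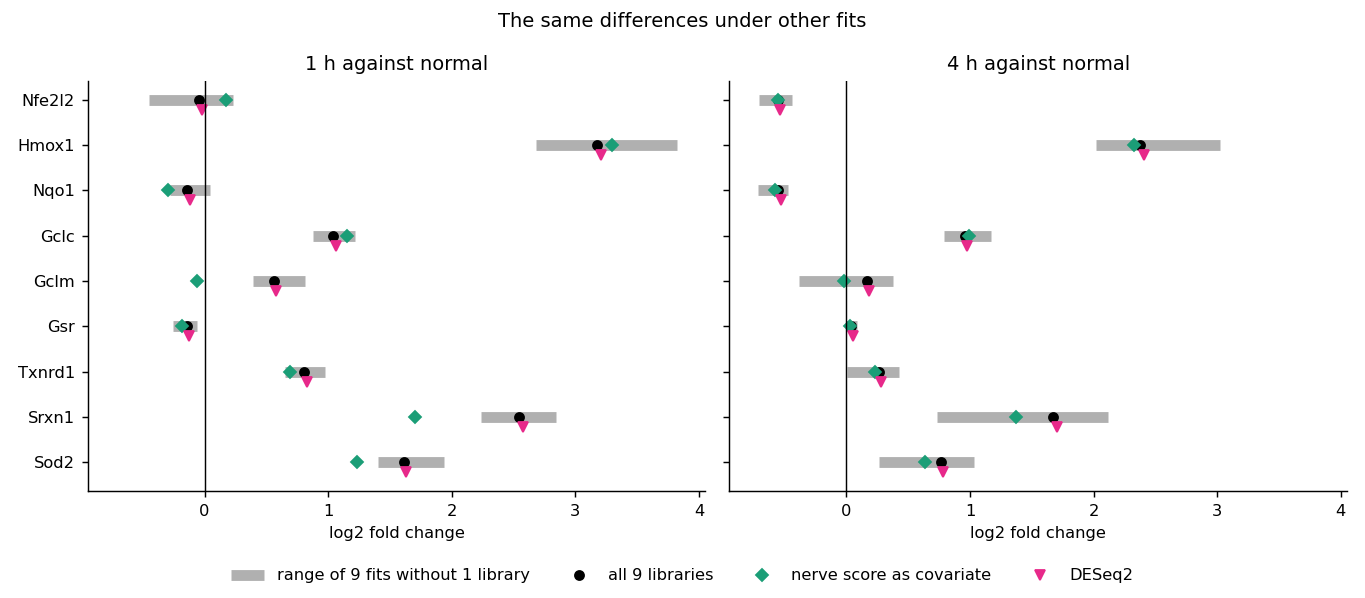
Log2 fold change (x axis) of each gene at 1 h and at 4 h against Normal with all 9 libraries (black), with the nerve score added to the fit (green), with DESeq2 (pink) and over the 9 fits that leave out 1 library (grey bars). Hmox1, Srxn1, Sod2, Gclc and Txnrd1 stay to the right of 0 throughout, Txnrd1 narrowly so at 4 h. Gclm lies on both sides of 0 at both times.

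The same question was put to 69 other genes around NRF2, listed by role. Of these, 67 were in the table and 66 were tested. None was called at 1 h, at 4 h or between the times, by edgeR or by DESeq2. Of all genes edgeR called 0.0581%, 0.0904% and 0% in these comparisons, and DESeq2 called 4.53%, 3.91% and 0%. Only 3 of the 66 had an unadjusted p under 0.05 at 1 h, 2 higher and 1 lower, and likewise 3 at 4 h, 2 higher and 1 lower, which is below the 16.7% and 12.4% of all genes. The median log2 fold change was 0.14 at 1 h and 0.034 at 4 h. By their fitted values 42 of the 66 were higher and 24 lower at 1 h, and 39 were higher and 27 lower at 4 h. Of all genes tested, 49.4% were higher at 1 h and 52.3% at 4 h. No test compared the first 9 genes with these 66.

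The regulators stood highest among the roles by their median log2 fold change, 0.35 at both times over 9 genes. Of these, 3 were higher without overlap at 1 h and 4 (Cul3, Maff, Mafg and Sqstm1) at 4 h, where 12.8% and 7.94% of all genes were. Maff and Mafg code for small MAF proteins, the DNA-binding partners of NRF2. Maff was at 30.9, 66.3 and 41.7 CPM in Normal, at 47.2, 190 and 92.7 CPM at 1 h and at 90.6, 114 and 93.2 CPM at 4 h. Normal and 1 h overlapped in Maff, while all 3 values at 4 h were above the normal ones. Its log2 fold change at 1 h was 1.25 (SE 0.48, unadjusted p = 0.0317, edgeR adjusted p = 0.284). Mafg was 0.39 higher on the log2 scale at 1 h (SE 0.16, unadjusted p = 0.0454, edgeR adjusted p = 0.294), from 64.0 to 84.2 CPM in Normal to 94.1 to 108 CPM.

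Cul3, the scaffold of the ligase that ubiquitinates NRF2, was at 72.6 to 85.0 CPM in Normal and at 97.3 to 109 CPM at 4 h, a log2 fold change of 0.35 (SE 0.14, unadjusted p = 0.0349, edgeR adjusted p = 0.356). Keap1, looked up after its values were seen, overlapped between all groups, at 42.2 to 50.8 CPM in Normal, 30.1 to 51.7 CPM at 1 h and 39.9 to 49.3 CPM at 4 h. Among the 8 genes of heme and iron handling, Hmox2, the constitutive heme oxygenase, was at 26.5 to 30.3 CPM in Normal and 34.0 to 38.5 CPM at 4 h. Its log2 fold change of 0.36 (SE 0.16, unadjusted p = 0.0468, edgeR adjusted p = 0.394) compares with 2.37 for Hmox1. None of the 8 had an unadjusted p under 0.05 at 1 h.

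Few of the enzymes that use glutathione, thioredoxin or NADPH reached an unadjusted p under 0.05. Of 17 glutathione genes, 1 had an unadjusted p under 0.05 at 1 h and none at 4 h. That gene was Gstt1, a glutathione transferase, at 13.8, 18.1 and 15.4 CPM in Normal and at 6.21, 11.1 and 5.83 CPM at 1 h, a log2 fold change of -1.03 (SE 0.35, unadjusted p = 0.0185, edgeR adjusted p = 0.260). The 14 thioredoxin and peroxiredoxin genes, the 7 tested genes of NADPH supply and the 3 genes of superoxide and peroxide removal (Sod1, Sod3 and Cat) had none under 0.05 at either time. Among 8 tested genes of quinone and carbonyl metabolism and export the median log2 fold change was -0.44 at 4 h, and Akr1b8, an aldo-keto reductase, was at 18.6, 3.94 and 5.17 CPM in Normal and at 3.80, 2.32 and 1.45 CPM at 4 h. Its log2 fold change of -1.87 (SE 0.64, unadjusted p = 0.0183, edgeR adjusted p = 0.291) was computed with normal replicate 1 far above the other two.

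**Figure D4:**
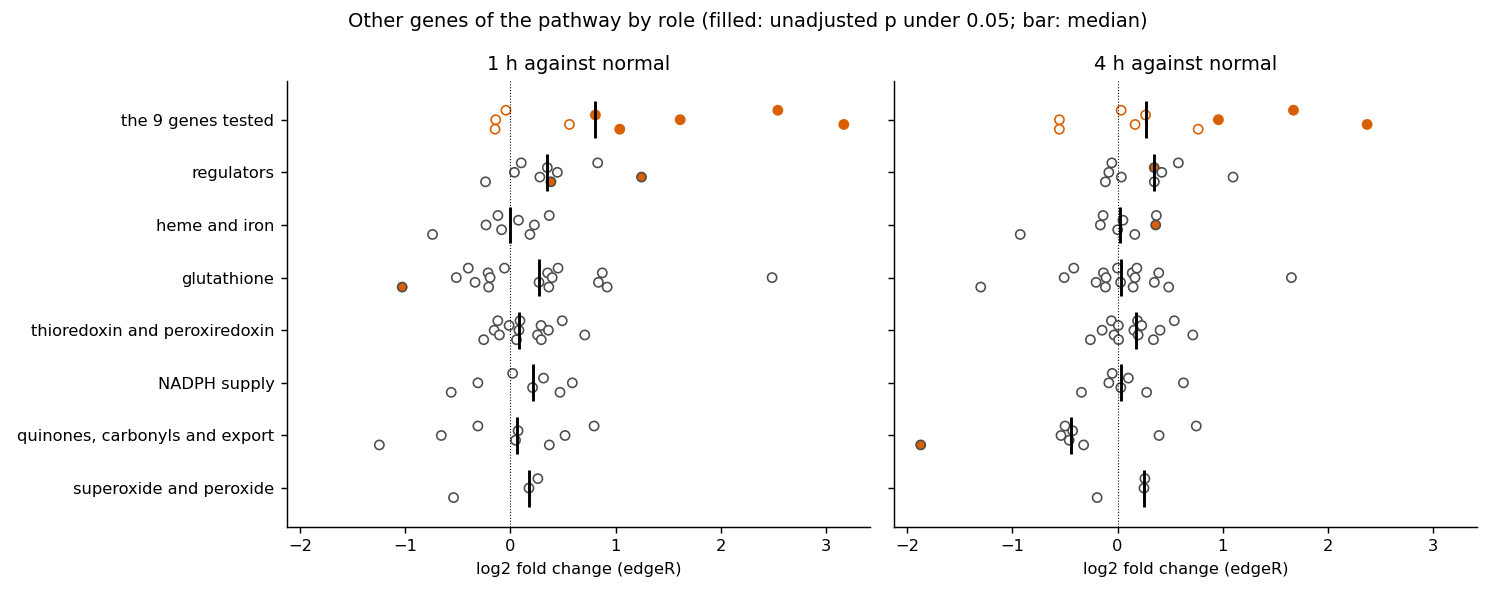
Log2 fold change (edgeR, x axis) of the 9 genes tested (orange) and of 66 other genes of the pathway by role, 1 point per gene, filled where the unadjusted p was under 0.05, with a bar at the median of each role. The points of most roles lie around 0, while the median of the 9 genes is 0.81 at 1 h and 0.27 at 4 h.

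For 4 of the genes the most similar profiles over the 9 libraries were looked up among 10356 genes with a mean of at least 5 CPM, using Pearson's correlation of log2 CPM. These are descriptions of 9 libraries that share depth, scaling and tissue makeup, and they carry no p. The profile of Hmox1 was most like those of Vmp1 (0.968), Sphk1 (0.947) and Sdc4 (0.940). Srxn1 was most like Nploc4 (0.971), Slc16a13 (0.965) and Unc5b (0.964). Sod2 was most like Ccl7 (0.968), Pde12 (0.965) and Il6 (0.961), of which Ccl7 codes for a chemokine and Il6 for a cytokine. Nfe2l2 was most like Ing5 (0.957), Mysm1 (0.941) and Ifnlr1 (0.932). None of these 12 genes is in the list of 69 or among the 10.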

How the data were processed

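The authors deposited raw counts per gene symbol for 9 rat artery libraries, sequenced on an Illumina instrument, and the submitters' processing notes name HISAT2. The study's methods describe Agilent microarrays with a random variance F-test, while its results speak of both gene chips and transcriptome sequencing. Whole-number counts do not match microarrays, so a count test was used. The counting program, genome build, annotation and strand setting are not given in the sources used here. Genes were filtered with filterByExpr, which left 15482, and scaled by TMM. The quasi-likelihood F-test of edgeR 4.0.16 (R 4.3.3) was fitted to all 9 libraries with group as the only term, with Benjamini-Hochberg adjustment over all genes tested. A call needed an adjusted p under 0.05 and a fold over 1.5, the thresholds of the study. The SE is the log2 fold change divided by the square root of F, and errors beside means are SD. The common biological coefficient of variation was 51.6%. No 2 libraries agreed within sampling noise (lowest chi-square per degree of freedom 29.9). The fit was run on simulated data with 200 changed genes. That run checked the median fold changes only and set no condition on p-values or calls.

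The genes, lists, tests and alternatives were chosen with earlier results of these data known. Named from the list of 69 were up to 4 higher and 4 lower genes per comparison with Normal, by largest change, with an unadjusted p under 0.05 and a mean of at least 5 CPM over the 6 libraries compared. For likeness, the 3 highest correlations were named, passing over uncharacterised identifiers. Alternatives were other scalings, no filter, only the groups compared, single libraries left out, the replicate number as a block, the nerve score as a covariate and DESeq2 1.42.0. Some genes of these lists may be near-identical to copies elsewhere, and how shared reads were counted is not known. Motifs were searched in RefSeq promoter windows of GRCr8, whose coordinates are not tied to the build behind the counts. The level of a single marker gene is not reported here.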

Additional observations from a re-analysis of the deposited data

How the results depend on the processing

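Each group held 3 libraries, the biological coefficient of variation was 51.6%, and Slc7a11 was too low to be tested at this depth. Among the refitted log2 fold changes of the 9 genes, 415 kept their direction and their side of an adjusted p of 0.05, 5 passed it (all with DESeq2) and 12 changed sign. DESeq2 called 4 genes at 1 h, 1 at 4 h and 2 over all 3 groups where edgeR called none. Over all genes it called 702, 606 and 669 where edgeR called 9, 14 and 6; the cause was not tested.

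With single libraries left out, 4 to 5 of the 9 genes had an unadjusted p under 0.05 at 1 h and 2 to 5 at 4 h. The shares of all genes in these fits were 8.04% to 23.5% and 9.61% to 12.6%. Between the times the number was 0 to 4, against 0.806% to 20.7% of all genes. Over all 3 groups it was 2 to 6, against 7.2% to 23.9%. Without replicate 1 at 1 h, 5 of the 9 had an unadjusted p under 0.05 at 4 h, against 11.6% of all genes. Nfe2l2 and Nqo1 were the additions. Between the times the same fit gave 4 (Nfe2l2, Nqo1, Txnrd1 and Sod2), against 3.1% of all genes. Without replicate 3 at 4 h, 4 of the 9 had an unadjusted p under 0.05 between the times, against 20.7% of all genes. These were Gclm, Txnrd1, Srxn1 and Sod2. The unadjusted p of Srxn1 at 4 h was also above 0.05 with scaling by library size alone (0.069) and with only the libraries of the groups compared (0.0542). Over all 3 groups 2 of the 9 had an unadjusted p under 0.05 without normal replicate 1, against 10.1% of all genes. Without normal replicate 2, normal replicate 3, replicate 2 at 1 h or replicate 3 at 1 h, 3 did each time. The shares of all genes were 7.2%, 8.12%, 13.6% and 7.35% in that order. The sign depended on the library left out for Nfe2l2 (-0.45 to 0.23) and Nqo1 (-0.28 to 0.048) at 1 h, for Gclm (-0.38 to 0.38) and Gsr (-0.0020 to 0.089) at 4 h, and for Gclc (-0.24 to 0.13) between the times.

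Adding the nerve score to the fit left 3 genes that passed over all 3 groups. It put Nfe2l2 at 0.18 at 1 h and Gclm at -0.058 at 1 h, -0.015 at 4 h and 0.042 between the times. Scaling by library size alone put Gsr at -0.13 at 4 h and -0.017 between the times, where it moved the median of all genes to -0.15 and -0.24.

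Same-numbered libraries did not deviate together throughout. The correlations of their deviations from the group means ran from -0.157 to 0.417 between 1 h and Normal, from -0.651 to 0.282 between 4 h and Normal and from -0.172 to 0.660 between the times, so the numbers were not taken as pairs. With the replicate block 5 of the 9 genes had an unadjusted p under 0.05 at 1 h, 2 at 4 h (Srxn1 was lost), 1 between the times (Sod2) and 5 over all 3 groups, and edgeR called none.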
